A study of Homo sapiens with 4 samples.

Results

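The genes described here are 10 genes of the unfolded protein response, *XBP1*, *ATF4*, *ATF6*, *DDIT3*, *HERPUD1*, *ERN1*, *EIF2AK3*, *PPP1R15A*, *CALR* and *CANX*, taken by name from the 23287 gene symbols of the RNA-seq files. They account for 20 of the 41138 transcripts. The cells were T47D, a human breast cancer line that expresses the progesterone receptor (PR). Before treatment they were placed in steroid-depleted serum, 24 h before harvest for RNA and 3 days before it for ChIP. One group of cells was treated with 10 nM of the synthetic progestin R5020 for 3 h and the other with the vehicle, ethanol (EtOH), and RNA was sequenced from both. PR binding sites come from a ChIP-seq library of cells treated with 10 nM R5020 for 1 h. There was 1 library per condition, so nothing below has a replicate check, no p-value is given, and each difference compares these libraries.

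The unfolded protein response adjusts the endoplasmic reticulum (ER) to the load of proteins it must fold, and secretory cells such as those of the mammary epithelium depend on it. The sensors IRE1, PERK and ATF6 sit in the ER membrane and start it. IRE1, encoded by *ERN1*, removes a short intron from the *XBP1* mRNA, so that the spliced form encodes an active transcription factor. PERK, encoded by *EIF2AK3*, phosphorylates the translation factor eIF2α, which favours translation of ATF4. ATF4 in turn induces *DDIT3* (CHOP) and *PPP1R15A* (GADD34, which directs dephosphorylation of eIF2α). The protein ATF6 is cut by proteases in the Golgi to release a transcription factor. *CALR* and *CANX* encode the lectin chaperones calreticulin and calnexin, and *HERPUD1* encodes a component of ER-associated degradation (ERAD).

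The intron that IRE1 removes is shown because the XBP1 transcripts in the files differ by it alone. GENCODE places it at chr22:29192116-29192141 (GRCh37, the assembly of hg19, minus strand) inside a coding exon of *XBP1*. Its first few bases recur directly after it, so placing it slightly further downstream leaves the same spliced sequence. The exact cut points of IRE1 can therefore differ from this placement by a few bases. In the line that follows, the capitals mark its 26 bases as annotated by GENCODE, with 30 coding bases on either side.
XBP1 intron: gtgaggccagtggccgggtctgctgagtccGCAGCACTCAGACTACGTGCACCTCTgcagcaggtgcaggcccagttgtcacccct

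Of the 10 members, 3 carry the ER stress response element in a promoter, that is the window of 250 bases before to 50 bases after a start site in RefSeq (GRCh38.p14, with each promoter found again by its exact sequence in GRCh37). The motif searched, on either strand, was CCAAT and CCACG with 9 bases of any kind between them, and capitals mark it in the lines that follow. The *XBP1* match is at chr22:29196586-29196614 (minus strand), the *CALR* match at chr19:13049193-13049221 (plus strand, motif in reverse) and the *CANX* match at chr5:179125774-179125802 (plus strand).
XBP1 promoter: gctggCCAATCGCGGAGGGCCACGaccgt
CALR promoter: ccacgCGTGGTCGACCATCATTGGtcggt
CANX promoter: cccggCCAATCTTCACACTCCACGaagaa
The motif is rare, in 25 of the 27305 genes with a promoter in the table (0.0916%). None of the 10 members held the amino acid response element TGATGNAAT in these windows, where 1.22% of all genes hold it. Sequence beyond the windows was not searched, so an element further from the start site of a member would be missed. Only exact matches were counted, so variant forms of either element inside the windows would be missed too. A match is a run of letters and not a measured site.

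Abundance was measured as FPKM, a fragment count divided by transcript length and by library size, and was summed over the transcripts of a gene. To each sum 1 was added, and the change is the log2 ratio of R5020 to EtOH, so for a gene with low FPKM it is smaller than the ratio of the values themselves. Genes that reached an FPKM of 1 in either library were kept and are called retained, which left 11018, among them 9 of the 10 members. A difference of 1.5-fold served as the threshold. FPKM is a measure on bulk RNA, in which fewer cells that express a gene and less RNA per cell cannot be told apart. Of 6 genes listed to check the progestin response, 4 were at least 1.5-fold higher in R5020. The largest rise of the 6 was that of *FKBP5*, a target of steroid receptors, from 15.9 to 86.6. *PER1* was within 1.5-fold (0.47), and *PGR*, which is also a luminal marker, was lower. All 9 luminal epithelial markers were retained. *KRT8* and *KRT18* were listed at 0 in EtOH, where their estimation had failed. *GATA3*, *FOXA1*, *ESR1* and *PGR* were at least 1.5-fold lower in the R5020 library, from −2.05 for *FOXA1* to −0.60 for *PGR*, and the other 3 were within 1.5-fold. The summed FPKM of the 7 markers estimated in both libraries was 1131 in EtOH and 799 in R5020. With *KRT8* and *KRT18*, at 0 in EtOH, the sum in R5020 was 1258. Among 11 markers of basal, stromal, endothelial and blood cells, *COL1A1* and *ACTA2* alone reached an FPKM of 1 in either library, *COL3A1* and *CDH5* were listed at 0, and the sum was 8.29 in EtOH and 6.32 in R5020. The part of these differences in the results that follow was not tested.

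Of the 9 retained members, 1 passed 1.5-fold upwards in R5020 and 0 passed it downwards. Among all retained genes these shares were 7.67% and 4.14%. The single gene was *ERN1*. The other 8 lay between a log2 fold change of −0.31 for *PPP1R15A* and 0.30 for *ATF6*, and the median of the 9 was 0.09, against 0.01 for all retained genes. In 6 of the 9 the level was higher in R5020 and in 3 it was lower, and 50.9% of all retained genes were higher.

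**Figure D1:**
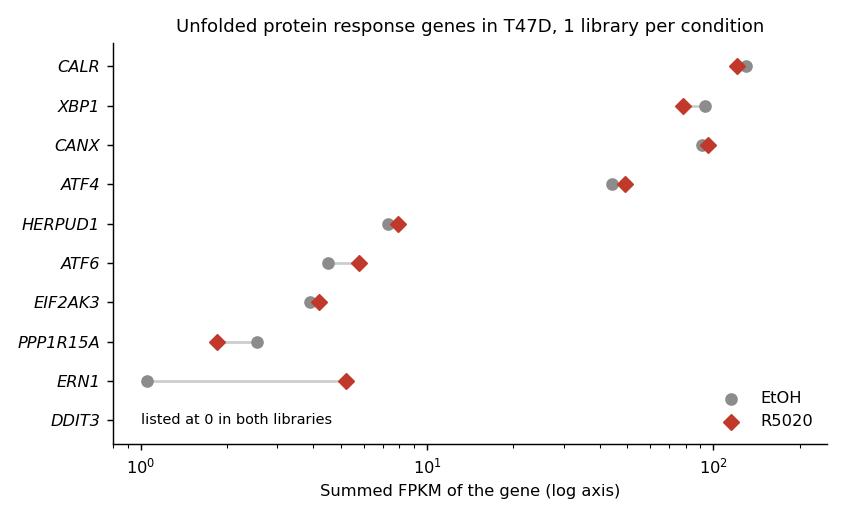
Summed FPKM of each of the 10 genes on a log axis, in the EtOH library (grey circles) and the R5020 library (red diamonds), 1 library each and without error bars. The points of *ERN1* are far apart, from 1.05 to 5.23, and those of the other genes lie close together, with *DDIT3* listed at 0.

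Among the sensors, *ERN1* on chromosome 17 (hg19, 62120390 to 62207502, minus strand) stood at 1.05 FPKM after EtOH and at 5.23 after R5020. This is a log2 fold change of 1.60, and the plain ratio of the FPKM values was 4.96. Both values come from the same single transcript, NM_001433, whose mean read coverage was 4.98 in EtOH and 23.5 in R5020. The intervals that the authors' software gave for the FPKM were 0.910 to 1.199 and 4.89 to 5.56, which do not overlap but cover the uncertainty within a library only. By its rise *ERN1* ranked 150 among the 11018 retained genes, and 97.9% of them had a smaller change in either direction. In rank of level among all 23287 gene symbols it went from 10579 to 5577.

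The other sensors differed far less. *EIF2AK3* on chromosome 2 (88856259 to 88927094) was at 3.90 in EtOH and 4.21 in R5020 (log2 fold change 0.09). *ATF6* on chromosome 1 (161736034 to 161933860) was at 4.50 and 5.77 (log2 fold change 0.30), and 69.4% of the retained genes had a smaller change in either direction. Relative to *EIF2AK3*, the level of *ERN1* went from 0.270 in EtOH to 1.24 in R5020, and relative to *ATF6* from 0.234 to 0.906. *ERN1* was thus the sensor with the lowest FPKM in EtOH and stood between the others in R5020. The order of *ERN1* and *EIF2AK3* in R5020 rests on which value is used, since the FPKM of *EIF2AK3* lies below its own interval of 5.54 to 6.38. With the midpoints of the intervals the ratio of *ERN1* to *EIF2AK3* was 0.192 in EtOH and 0.877 in R5020. *ERN2*, the other IRE1 gene, was listed at 0 in both libraries.

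**Figure D2:**
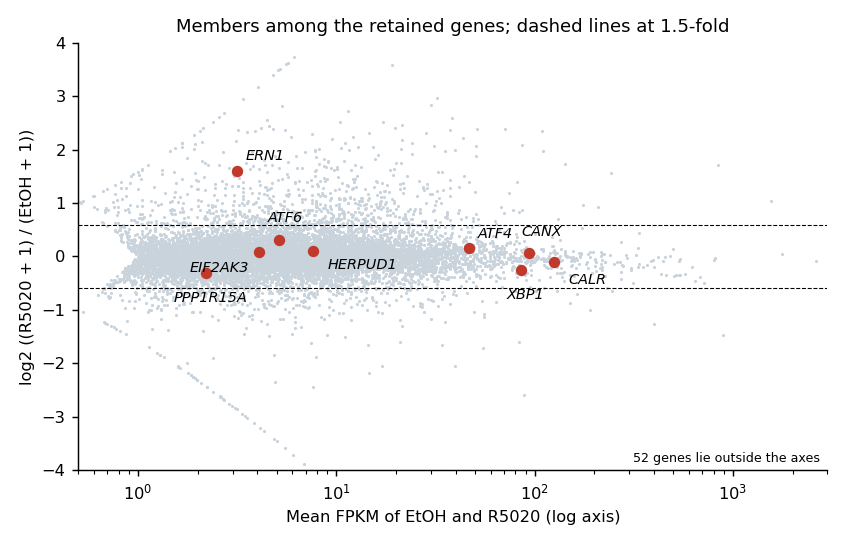
Log2 fold change (R5020 over EtOH, pseudocount 1) of the retained genes against their mean FPKM (log axis), with the 9 retained members in red and dashed lines at 1.5-fold, while 52 genes lie outside the axes. *ERN1* at 1.60 is the member beyond the lines, and the other 8 lie between the lines.

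*XBP1*, the substrate of IRE1, lies on chromosome 22 (29190548 to 29196560). Its summed FPKM was 93.4 in EtOH and 78.4 in R5020 (log2 fold change −0.25). The difference was not spread evenly over its transcripts. The spliced transcript, NM_001079539, was at 73.9 in EtOH and 55.03 in R5020, with authors' intervals of 71.6 to 77.2 and 52.4 to 57.8. The unspliced transcript, NM_005080, was at 19.5 and 23.4, with intervals of 17.96 to 20.97 and 21.7 to 25.1. The spliced form was therefore lower and the unspliced form higher in the R5020 library, and for either form the intervals of the libraries do not overlap. As for *ERN1*, these intervals cover the uncertainty within a library only.

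The spliced form held 79.2% of the *XBP1* FPKM in EtOH and 70.2% in R5020, a difference of −8.99 percentage points. Taking the interval bounds that give the lowest and the highest share, the range was 77.4% to 81.1% in EtOH and 67.6% to 72.7% in R5020. To see how large such a shift is, the leading transcript was followed in the 620 genes with exactly 2 transcripts, both above 0 in EtOH, and an FPKM of at least 5 in both libraries. The median shift of its share was 5.88 percentage points, and 38.7% of these genes shifted by as much as *XBP1* or more. Among the 41 with an FPKM of at least 50 in EtOH, the median was 2.40 and 12.2% shifted as much. Both sets include *XBP1* itself and *CANX*, whose own shift, taken without its sign, is this median of 2.40. The transcripts differ by 26 bases, so the estimate rests on the reads that cross this place, whose number the files do not list. How the aligner treated so short an intron is not given in the sources used here. *ERN1* was thus higher in the same library in which the share of the form made by its product was lower.

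*HERPUD1* showed a similar exchange within an almost level sum. The gene, on chromosome 16 (56965748 to 56977793), was at 7.30 in EtOH and 7.93 in R5020 (log2 fold change 0.11). The transcript NM_014685 was at 3.95 and 6.16, and NM_001010990 was at 3.35 and 1.78. The share of the former went from 54.1% to 77.6%, a shift of 23.5 percentage points, which 7.18% of the 1393 genes with at least 2 transcripts above 0 and an FPKM of at least 5 reached. The third listed transcript was at 0 in both libraries. As for *XBP1*, the files do not list the reads that tell these forms apart, and with 1 library per condition the spread of such shares between cultures is unknown.

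**Figure D3:**
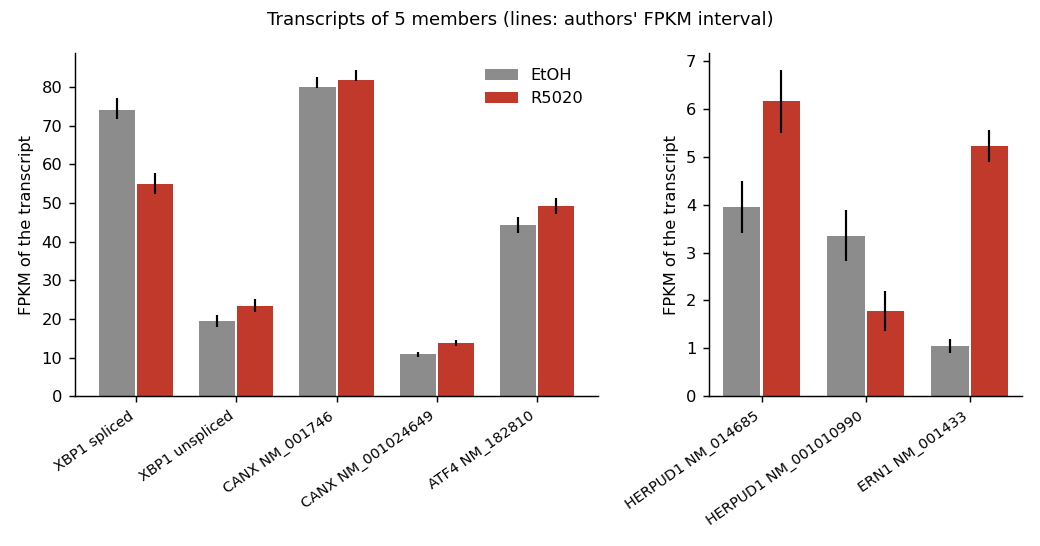
FPKM of single transcripts of *XBP1*, *CANX* and *ATF4* (left) and of *HERPUD1* and *ERN1* (right, on a smaller scale) in EtOH (grey) and R5020 (red), with lines for the FPKM interval of the authors' software, which covers 1 library each. The spliced *XBP1* form is lower and the unspliced form higher in R5020, and the *HERPUD1* forms move in opposite directions.

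In the PERK branch, *ATF4* on chromosome 22 (39916569 to 39918691) was among the abundant members, at 44.2 in EtOH and 49.1 in R5020 (log2 fold change 0.15). All of it was assigned to the transcript NM_182810, and NM_001675 was listed at 0 in both libraries. *PPP1R15A* on chromosome 19 (49375649 to 49379319) was at 2.55 in EtOH and 1.85 in R5020 (log2 fold change −0.31), which at this low FPKM became −0.46 without the pseudocount. It had the lowest fold change of the retained members and remained below 1.5-fold on either scale.

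*DDIT3* on chromosome 12 (57910371 to 57914300) was listed at 0 in both libraries, for each of its 6 transcripts and with a status of OK. No change can be given for it. A value of 0 in these files need not mean that a transcript was missing. *KRT8* and *KRT18* were at 0 in EtOH with failed estimates and at 285 and 174 in R5020, and *CPNE1* was at 18.3 in EtOH and at 0 in R5020 without a failed status. The 3′ end of the *DDIT3* locus shares 68 bases with the end of *MARS* (methionyl-tRNA synthetase), which was at 22.1 and 23.6.

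The lectin chaperones were the most abundant members along with *XBP1*. *CALR* on chromosome 19 (13049414 to 13055304) was at 130.3 in EtOH and 121 in R5020 (log2 fold change −0.11). *CANX* on chromosome 5 (179125930 to 179158639) was at 90.9 and 95.6 (log2 fold change 0.07), with 88.1% and 85.7% of it in the transcript NM_001746. The level of *CALR* is uncertain, because its FPKM lies far below its own interval of 335 to 345 in EtOH and 302 to 312 in R5020. The midpoint of the interval exceeded the FPKM 2.61 times in EtOH and 2.55 times in R5020, so the ratio of the libraries changed little, to a log2 fold change of −0.14. The FPKM of *EIF2AK3* and *PPP1R15A* was likewise outside the interval in both libraries, and that of *ATF6* in EtOH. Such cases were common. Of all transcripts with a status of OK and an FPKM above 1, 35.4% lay outside their own interval in each library. The intervals are therefore a limited guide for the other members too.

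The order of the levels in EtOH was *CALR*, *XBP1*, *CANX*, *ATF4*, *HERPUD1*, *ATF6*, *EIF2AK3*, *PPP1R15A*, *ERN1* and *DDIT3*. In R5020 it was *CALR*, *CANX*, *XBP1*, *ATF4*, *HERPUD1*, *ATF6*, *ERN1*, *EIF2AK3*, *PPP1R15A* and *DDIT3*. *XBP1* and *CANX* exchanged places, and *ERN1* passed *PPP1R15A* and *EIF2AK3*. With the interval midpoints the order of the low members was different. *EIF2AK3* then stood above *ATF6* in EtOH, at 5.50 against 4.79, and *ERN1* remained below *EIF2AK3* in R5020, at 5.23 against 5.96. Which neighbours in this order differ beyond the spread between cultures cannot be said from 1 library each.

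The rest of the pathway was followed in 80 further genes in 4 lists, of which 75 were retained. At least 1.5-fold higher in R5020 were 5 of the 75 (6.67%), and 1 was at least 1.5-fold lower (1.33%), against 7.67% and 4.14% of all retained genes. The median log2 fold change of the 75 was −0.01.

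Of the 18 ER chaperones and foldases, all retained, 1 was higher and 0 were lower, and the median was −0.02. The gene was *DNAJC3*, which encodes an ER co-chaperone also known as an inhibitor of PERK, at 10.1 in EtOH and 17.2 in R5020 (log2 fold change 0.71). *HSPA5*, the chaperone BiP that keeps the sensors inactive, was at 105 and 103 (−0.03). *HSP90B1* (GRP94) was at 139 and 145 (0.06). The lowest of the list was *DNAJB9*, an ER co-chaperone, at 6.77 and 5.22 (−0.32). The 3 members with an ER stress response element and the 4 chaperone genes that hold it too, *HSPA5*, *HSP90B1*, *PDIA6* and *CRELD2*, were thus all below 1.5-fold.

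Of the 21 retained genes of ERAD and the translocon, 0 passed 1.5-fold in either direction, with a median of 0.03. They ranged from −0.49 for *SEC61B*, a subunit of the translocon, at 18.4 and 12.8, to 0.41 for *SSR3*, a subunit of the translocon-associated complex, at 24.7 and 33.2.

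The 19 retained genes of the PERK and ATF4 branch held 3 higher genes and 1 lower gene, with a median of 0.05. *ERN2* was counted in this list and was not retained. *ATF3*, a stress-induced transcription factor, was at 2.55 in EtOH and 6.60 in R5020 (log2 fold change 1.098). *TNFRSF10B*, the death receptor DR5 that CHOP induces, was at 2.52 and 5.65 (0.92). *CEBPG*, a partner of ATF4, was at 6.07 and 11.9 (0.87). The lower gene was *BBC3*, which encodes the pro-apoptotic protein PUMA, at 2.06 and 0.541 (−0.99). The ATF4 target genes *ASNS*, at 6.30 and 6.65 (0.07), and *TRIB3*, at 3.45 and 3.07 (−0.13), were below the threshold and were looked up after their values were seen.

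Of the 17 retained partners of the IRE1 and ATF6 branches, 1 was higher and 0 were lower, with a median of −0.01. The gene was *CREB3L2*, which encodes a transcription factor of the ER membrane that is cut like ATF6, at 3.37 in EtOH and 9.45 in R5020 (log2 fold change 1.26). Its relative *CREB3L4* was the lowest of the list, at 25.9 and 18.7 (−0.45).

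**Figure D4:**
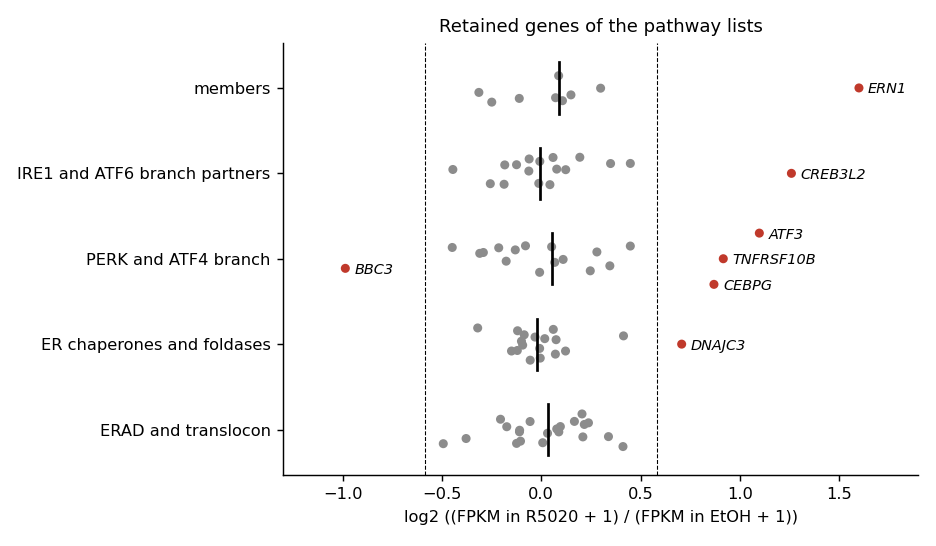
Log2 fold change (R5020 over EtOH, pseudocount 1) of each retained gene of the members and of the 4 other pathway lists, with black bars for list medians, dashed lines at 1.5-fold and red points for genes beyond them. The medians lie near 0, and *ERN1*, *CREB3L2*, *ATF3*, *TNFRSF10B*, *CEBPG* and *DNAJC3* are beyond the upper line and *BBC3* beyond the lower line.

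PR binding was compared with the loci next. The ChIP-seq file holds 11181 sites with a score, −10 times the log10 of the p-value of the peak caller, between 50 and 1965 and with a median of 74.5. Of the 10 members, 6 had a site within 50 kb of the locus, the distance used in the study, and 11 sites lay within it. Among the 9 retained members the number was 5. Of all retained genes 52.7% had such a site, so the members were near the background. Among genes at least 1.5-fold higher in R5020 the share within 50 kb was 61.4%, and among those at least 1.5-fold lower it was 61%. Of the other 75 pathway genes 40 had a site within 50 kb (53.3%). Within 10 kb, *DDIT3* and *EIF2AK3* had a site, so 1 of the 9 retained members, against 33% of all retained genes.

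*ERN1* had 5 of the 11 sites, and none of them lay inside the gene. Of all retained genes 8.56% had 5 or more sites within 50 kb, and of those with a locus of 50 to 150 kb, 7.31%, while 50.1% of the latter had at least 1. Chromosome 17 held 11.6 sites per Mb against 3.68 over all chromosomes, and its part in this number was not tested. The nearest site, at chr17:62233693-62234245 with a score of 91.02, was 26.2 kb upstream of the locus in an intron of *TEX2*, 375 bases from a start of that gene. The other upstream sites, at chr17:62251925-62252480 (score 76.3) and chr17:62253443-62253772 (score 59.2), were 44.4 and 45.9 kb away in introns of the same gene. *TEX2* was itself past 1.5-fold, at 6.13 in EtOH and 10.2 in R5020 (log2 fold change 0.65). The downstream sites, at chr17:62075668-62076381 (score 90.4) and chr17:62073235-62073639 (score 66.02), were 44.01 and 46.8 kb away at and near the start of *PRR29*.

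The middle 120 bases of the upstream sites of *ERN1* are printed because *ERN1* is the member that differed. They are from the plus strand of GRCh37, at chr17:62233909-62234028, chr17:62252143-62252262 and chr17:62253548-62253667, and overlap no annotated exon. Capitals mark a single arm of the hormone response element, AGAACA on either strand.
ERN1 upstream site at 26.2 kb: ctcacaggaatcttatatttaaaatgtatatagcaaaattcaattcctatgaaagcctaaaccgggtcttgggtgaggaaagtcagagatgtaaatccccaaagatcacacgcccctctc
ERN1 upstream site at 44.4 kb: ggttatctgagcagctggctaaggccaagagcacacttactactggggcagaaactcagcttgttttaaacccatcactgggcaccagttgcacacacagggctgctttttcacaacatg
ERN1 upstream site at 45.9 kb: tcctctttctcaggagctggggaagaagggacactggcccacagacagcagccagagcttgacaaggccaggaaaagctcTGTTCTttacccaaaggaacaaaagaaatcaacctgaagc
Over the full length of the 11 sites near members, 0 held the palindrome core ACANNNTGT and hence 0 its longer form, with G and any base before the core and any base and C after it, and 1 held the arm AGAACA, a search added after the data were seen. Of all 11178 sites on the assembled chromosomes 11.6%, 2.40% and 25.2% held them, and of the 1823 with a score of at least 100, 19.6%, 5.76% and 31.4%. The lack of the core in these sites says only that its letters are not there, and nothing on the binding of the receptor.

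Of the other members, *DDIT3* had 2 sites and *EIF2AK3*, *CALR*, *CANX* and *ATF4* had 1 each. *EIF2AK3* was the member with a site over its locus, at chr2:88860759-88861250 with a score of 61.5, in an intron 66.1 kb from its start and 150 bases from the start of a shorter annotated transcript. Of all retained genes 22.5% had a site over the locus. *DDIT3* had a site 2.36 kb upstream of it at chr12:57916659-57916972 (score 70.8), 31 bases from a start of *MBD6*, and a further one 44.5 kb upstream in *KIF5A* (score 69.7). *MBD6* was at 21.1 in EtOH and 12.7 in R5020 (log2 fold change −0.69), while *DDIT3* was listed at 0.

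The highest scores near members were at sites near *CALR*, *CANX* and *ATF4*, which differed little. Which gene any of these sites acts on was not tested. *CALR* had a site 47.8 kb upstream at chr19:13001429-13001634 with a score of 160, which 96.5% of all sites did not reach, 443 bases from a start of *GCDH*. The site of *CANX*, 18.8 kb upstream at chr5:179106950-179107158, had a score of 142, and longer *CANX* transcripts of GENCODE extend over it. *ATF4* had a site 37.1 kb downstream at chr22:39955754-39956027 with a score of 107. The scores of the sites near *ERN1* lay between 59.2 and 91.02. Of the 11 sites, 6 had their midpoint within 1 kb of a protein-coding start, against 23.2% of all sites. The 11 were chosen for lying near genes and the sites at large were not, so these shares are not on like terms.

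*XBP1*, *ATF6*, *HERPUD1* and *PPP1R15A* had no site within 50 kb. Their nearest sites were 273, 241, 161 and 121 kb away. Of the 6 other pathway genes past 1.5-fold, *ATF3* and *BBC3* had 3 sites each within 50 kb, *CEBPG* had 2, *TNFRSF10B* and *CREB3L2* had 1 each and *DNAJC3* had 0.

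**Figure D5:**
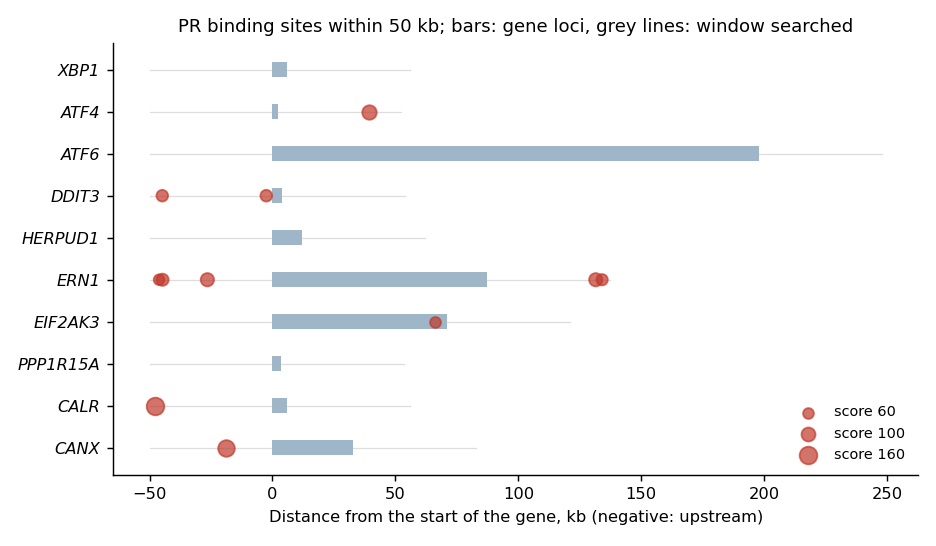
PR binding sites within 50 kb of each of the 10 loci, by distance of their midpoint from the start of the gene in kb (negative is upstream), with blue bars for the loci, grey lines for the window searched and circle size for the score. *ERN1* has 5 sites outside its locus, *EIF2AK3* has 1 inside it, and *XBP1*, *ATF6*, *HERPUD1* and *PPP1R15A* have none.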

How the data were processed

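RNA-seq of R5020- and EtOH-treated T47D cells and PR ChIP-seq of R5020-treated cells were analysed, with 1 library each. No values of the input DNA library were used. The authors aligned the RNA reads with TopHat (hg19), kept those with a unique position and deposited FPKM values with an interval, a coverage and a status for each RefSeq transcript, estimated by Cufflinks. The deposited coverage signal served to describe the depth of *ERN1*. The deposited FPKM does not list fragments, and whether strand was used is not given in the sources used here. The authors mapped the ChIP reads with Bowtie 1.1.2 and deposited the MACS score of each site, called against input DNA. Site and locus starts were read as counted from 0 and are printed counted from 1.

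FPKM was summed per gene and compared as log2(FPKM + 1). The minimum of 1 in at least 1 condition and the threshold of 1.5-fold follow the methods of the study. The pseudocount of 1 was added here and calls fewer genes, and the Cuffdiff p-value of the study was not used. Sites were tied to loci by nearest edge and annotated by midpoint with protein-coding genes of the GENCODE annotation on GRCh37. The members and lists were chosen with earlier results of these data known. The named genes were all members, *HSPA5*, *HSP90B1* and, in each other list, the genes past 1.5-fold with the highest and the lowest gene. *ASNS*, *TRIB3*, *ERN2* and the genes with an ER stress response element were named outside this rule, after their values were seen. *VIMP* was found as *SELS*. Without replicates no test was run and none could leave out a sample. The fold-change call was run on simulated data with planted changes well above the threshold, so finding them again was largely fixed in advance. The distance rule was run on a small made-up case. Transcript shares and motif searches were not checked in this way. Python 3.11.15, pandas 2.3.3, numpy 2.4.6 and matplotlib 3.10.9 were used.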

Additional observations from a re-analysis of the deposited data

How the results depend on the processing

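The count of members at least 1.5-fold higher stayed at 1 and of those lower at 0 with a pseudocount of 0.1, without a pseudocount, after rescaling R5020 to a median log2 ratio of 0, with the highest transcript, at 2-fold, without a filter, with an FPKM of at least 1 in both conditions and with interval midpoints. Of the 45 member values under alternatives, 45 kept their direction and their side of 1.5-fold. Much of this was fixed in advance, so it is weak support. A change of pseudocount cannot reverse a direction, and the rescaling factor was 0.9917. Members with a single transcript above 0 keep the same value with the highest transcript. The log2 fold change of *ERN1* ranged from 1.59 to 2.31. Leaving out the pseudocount and, for member levels, using midpoints were alternatives chosen after seeing the data. Over all genes the 845 higher and 456 lower became 378 and 144 at 2-fold, 1092 and 787 with a pseudocount of 0.1, 1127 and 845 without one, and 662 and 299 with an FPKM of at least 1 in both conditions. With interval midpoints the spliced share of *XBP1* was 79.3% in EtOH and 70.2% in R5020. The counts of sites depended on the window. Within 10 kb, 2 of the 10 members had a site, with 2 sites, and 1 of the 9 retained members, against 33% of retained genes. Within 100 kb, 6 members had 18 sites, but the share of all retained genes at this distance was not computed, so this count has no background. With a score of at least 100, 3 members had 3 sites within 50 kb, and *ERN1* had none. These were *ATF4*, *CALR* and *CANX*, all among the 9 retained members, against 18.1% of retained genes with such a site. No paired analysis was possible because there was 1 library per condition. The FPKM of *CALR*, *EIF2AK3* and *PPP1R15A* lies outside its own interval, which limits comparisons of level between genes.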

Other observations

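The ER stress response element is a property of sequence and was not chosen by the expression values. Beyond the pathway lists it was found in the promoters of genes such as *SERP1*, which encodes a stabiliser of membrane proteins at the translocon, *FICD*, which modifies BiP, and *ALG12*, which extends the sugar chain of glycoproteins. Of the 25 genes with the element, 20 were found under the same symbol and 15 were retained, among them the 3 members and the 4 chaperone genes named with the lists. Of the 15, 0 passed 1.5-fold upwards and 0 downwards in R5020. The shares of all retained genes were 7.67% and 4.14%, so a count of 0 among 15 genes is near the background. Their log2 fold changes ranged from −0.31 for *SYNPO* to 0.48 for *TRIM5*, with a median of 0.03. *SERP1* was at 26.6 in EtOH and 37.2 in R5020 (0.47), *FICD* at 1.14 and 1.27 (0.09) and *ALG12* at 2.36 and 1.87 (−0.23). These genes were named after their values were seen, and there was 1 library per condition.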
